A study of Mus musculus with 10 samples.

Results

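Transcripts of 7 genes of the complement system were measured in the hippocampus of mice that lack Tshr, the receptor for thyrotropin (Tshr-/-), and of wild-type mice. The genes were taken by name from a table of 52636 genes. They are the C1q chains C1qa, C1qb and C1qc, the central components C3 and C4b, and the regulators Serping1 and Cd59a, and all 7 had a row in the table. The Tshr-/- group had 5 libraries and the wild-type group 5, all from C57BL/6 mice aged 3 months. The labels state neither the deleted part of Tshr, nor whether a library is a single mouse, nor any thyroid hormone treatment, and the submitters call the libraries biological replicates.

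Complement is a set of proteins that tags targets for removal. C1q, a hexamer of bundles that each hold an A, a B and a C chain, binds a target and opens the classical pathway, in which C4 and then C3 are cut and deposited. C1 inhibitor, the product of Serping1, stops the proteases of the C1 complex, and CD59 on the cell surface blocks the pore that ends the cascade. In the mouse brain microglia are the main source of C1q, and complement takes part in the removal of synapses.

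The C1q genes lie side by side on the minus strand of chromosome 4 (mm10), C1qb at 136880129 to 136886187, C1qc at 136889804 to 136893065 and C1qa at 136895917 to 136898803. Promoter sequence from RefSeq (GRCm38.p6) matched 4 of the 7 genes, C1qb, C1qc, C3 and Cd59a, and had no entry for C1qa. That of C1qb and C1qc is shown because the levels of the C1q chains moved together across libraries. Each stretch ends before the start of the deposited gene model, is read 5′ to 3′ on the minus strand, and spans 250 bases for C1qb (chr4:136886201-136886450) and 99 bases for C1qc (chr4:136893066-136893164). Capitals mark GAGGAA or its reverse complement TTCCTC, a purine-rich motif of the kind that ETS factors such as the myeloid factor PU.1 can bind.
C1qb: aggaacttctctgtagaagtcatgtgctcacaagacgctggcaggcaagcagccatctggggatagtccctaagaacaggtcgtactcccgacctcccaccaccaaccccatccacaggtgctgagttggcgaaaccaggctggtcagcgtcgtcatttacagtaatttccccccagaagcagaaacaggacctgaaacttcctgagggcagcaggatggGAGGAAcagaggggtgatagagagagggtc
C1qc: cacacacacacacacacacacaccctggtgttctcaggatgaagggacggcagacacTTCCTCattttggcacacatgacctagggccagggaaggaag
Searched on both strands of the 250 bases before the RefSeq start, the motif was present in C1qb, C1qc and Cd59a and was not in the window of C3. Of all 32851 promoters in the same source, 23.3% hold it in that window, so its presence is a description of these letters and not of a bound site.

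FPKM, a level scaled to gene length and sequencing depth, could be turned back into whole reads, which summed to 23899650 to 33529811 per library. Tshr itself had 0, 0, 0, 5 and 2 reads across the Tshr-/- libraries, against 9, 12, 7, 2 and 2 across the wild-type ones. These few reads overlap, Tshr-/- library 4 being above wild-type libraries 4 and 5, and without knowing the deleted part they do not check every label. Markers of hippocampal subfields were present in the libraries, summing to 186 to 276 FPKM in Tshr-/- and 254 to 342 FPKM in wild type over 10 genes. Libraries also held neighbouring tissue in unequal amounts, in part along genotype. In the test described below all 10 subfield markers were lower in Tshr-/-, 7 of them at an unadjusted limma p below 0.05. All 8 thalamus and habenula markers and 8 of the 9 choroid plexus markers tested were higher in Tshr-/-. None of these genes passed after adjustment. The choroid plexus gene Ttr stood at 2189 FPKM in Tshr-/- library 4 and at 0.830 to 84.1 FPKM in the other 9 libraries. The thalamus and habenula list was highest in libraries 2 and 1 of Tshr-/-, then in libraries 5 and 2 of wild type.

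Levels per gene length placed the C1q chains far above the other members. Over all 10 libraries C1qa averaged 48.1 FPKM, C1qb 33.7 and C1qc 23.2, against 4.47 for C4b, 3.45 for Cd59a, 2.25 for Serping1 and 0.139 for C3. C1qa lay above 93.6% of the 15471 tested genes and Serping1 above 30.4%. In each of the 10 libraries C1qa was higher than C1qb, C1qb higher than C1qc, C1qc higher than C4b, and Serping1 higher than C3. The order of C4b and Cd59a was not fixed, with C4b higher in 7 of 10 libraries, and Cd59a stood above Serping1 in 8 of 10.

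**Figure D1:**
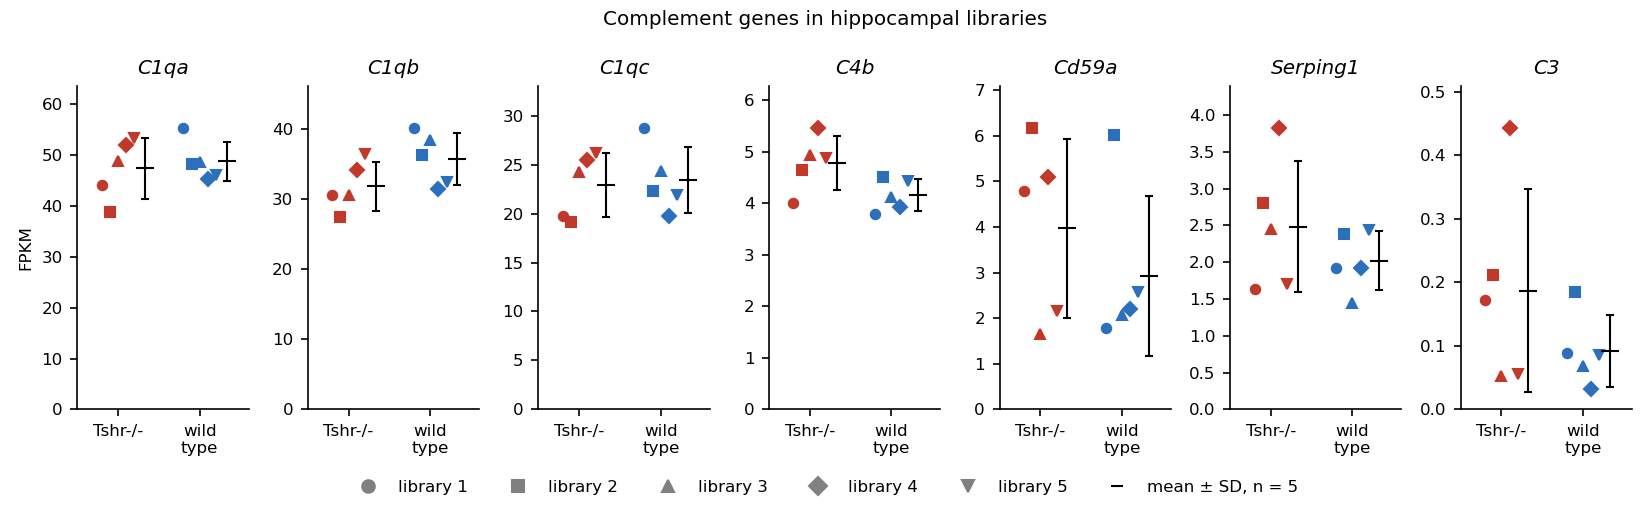
FPKM (y axis, linear, from 0) of the 7 complement genes in the 5 Tshr-/- (red) and 5 wild-type (blue) libraries, a marker shape for each library number, with the mean and SD in black. The genotypes overlap for every gene, and Cd59a and C3 are each highest in the same 4 libraries, Tshr-/- 1, 2 and 4 and wild type 2.

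Which complement transcripts differ without Tshr was tested gene by gene with limma on log2(FPKM + 0.1). The test covered the 15471 genes with a mean of at least 0.5 FPKM, with p-values adjusted over all of them. Of the 7 members 6 entered the test and C3, too low, did not. None of the 6 passed, as against 2 of all genes tested (0.0129%). At an unadjusted p below 0.05 there was 1, C4b, with a positive difference. Of all genes tested, 719 (4.65%) lay below that level with a positive and 1296 (8.38%) with a negative difference, and 1 gene among 6 is too few to set apart from those shares. Limma voom on the rebuilt reads, and limma on all 34046 genes with a read (0.0117% called), called 0 members as well. Of the 6 differences, 3 were above 0 and 3 below, with a median of 0.08 against -0.01 over all genes tested. No member had all Tshr-/- libraries on one side of all wild-type libraries, which 2.68% of the tested genes had.

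The C1q chains, the recognition subunits of the classical pathway, had levels that overlapped between the genotypes, and none passed the test. C1qa (ENSMUSG00000036887) had 44.2, 38.8, 48.9, 52.1 and 53.4 FPKM in Tshr-/- libraries 1 to 5, and 55.3, 48.4, 48.7, 45.3 and 46.2 FPKM in wild-type libraries 1 to 5. The lowest values were those of Tshr-/- libraries 2 and 1, and the other 3 Tshr-/- libraries lay within the wild-type range. Tshr-/- libraries 2 and 1 were also the highest in thalamus and habenula markers. The means were 47.5 ± 6.00 FPKM in Tshr-/- and 48.8 ± 3.93 in wild type (SD, n = 5 each), which is a log2 difference of -0.04 with a 95% interval from -0.25 to 0.16 (limma adjusted p = 0.867). Each library gave 1162 to 1763 C1qa reads.

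C1qb (ENSMUSG00000036905) had 30.5, 27.4, 30.6, 34.1 and 36.3 FPKM in Tshr-/- libraries, against 40.1, 36.2, 38.4, 31.4 and 32.4 FPKM in wild-type libraries. Tshr-/- libraries 1, 2 and 3 lay below every wild-type library, and libraries 4 and 5 within their range. The log2 difference was -0.17, with an interval from -0.37 to 0.03 (limma adjusted p = 0.461). C1qc (ENSMUSG00000036896) had 19.7, 19.2, 24.3, 25.4 and 26.2 FPKM in Tshr-/- libraries, against 28.7, 22.3, 24.3, 19.8 and 21.9 FPKM in wild-type libraries. Its ranges overlapped over most of their length, and the log2 difference was -0.03, with an interval from -0.29 to 0.23 (limma adjusted p = 0.939). The differences of C1qa and C1qc were so close to 0 that quantile normalization turned both to a positive sign, at 0.03 and 0.04.

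The chains varied together from library to library. Over the 10 libraries the log2 values of C1qa and C1qc had a Pearson r of 0.933 (permutation p = 0.00011, adjusted p = 0.0011) and a Spearman rho of 0.988 (permutation p = 1e-05, the smallest that these permutations can give, adjusted p = 0.0001). For C1qa and C1qb r was 0.835 (permutation p = 0.00269, adjusted p = 0.0134) and rho 0.782 (permutation p = 0.0109, adjusted p = 0.0362). For C1qb and C1qc r was 0.796 (permutation p = 0.00757, adjusted p = 0.0252) and rho 0.855 (permutation p = 0.00261, adjusted p = 0.013). Without the 2 libraries farthest from the median of the first-named gene, r was 0.948 for C1qa with C1qc, 0.583 for C1qa with C1qb and 0.580 for C1qb with C1qc, so both relations of C1qb were weaker without those libraries. These were 3 of 10 pairs computed among C1qa, C1qb, C1qc, C4b and Serping1, over which the p-values were adjusted.

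The balance of the chains was also compared within libraries. The ratio of C1qb to C1qa FPKM was 0.690, 0.705, 0.625, 0.655 and 0.681 across Tshr-/- libraries, against 0.724, 0.750, 0.789, 0.692 and 0.702 across wild-type libraries. The ranges met only where Tshr-/- library 2 lay above wild-type libraries 4 and 5. The mean ratio was 0.671 ± 0.0317 in Tshr-/- and 0.731 ± 0.0391 in wild type. The ratio of C1qc to C1qa was 0.483 ± 0.0204 and 0.478 ± 0.0324 in the same order (SD, n = 5 each). These ratios were examined after the levels were seen and are given without a test.

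**Figure D2:**
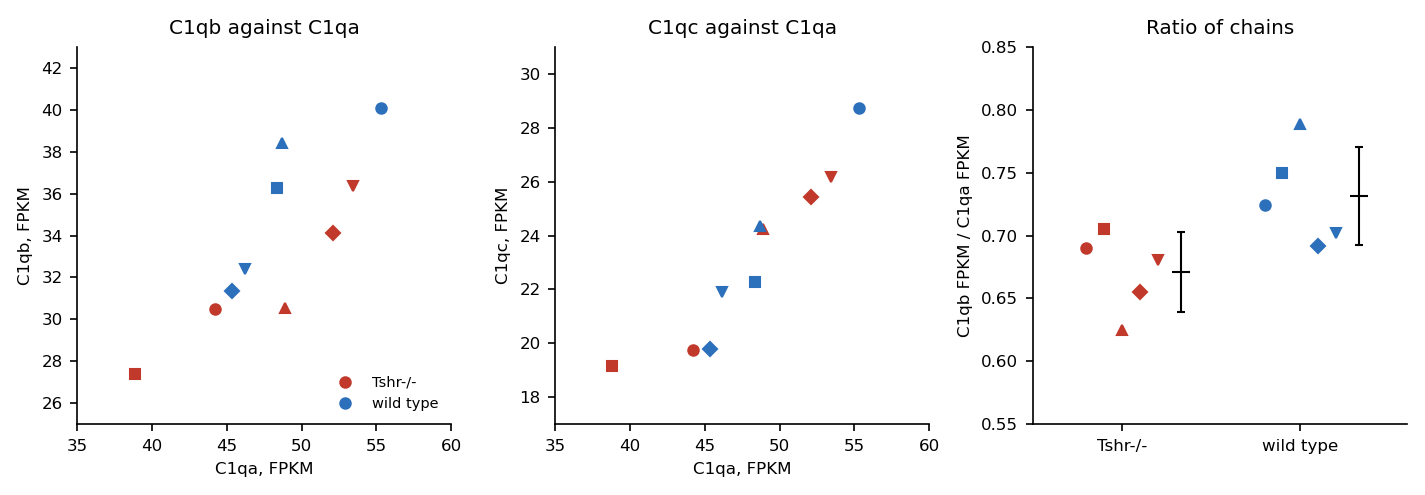
FPKM of C1qb and of C1qc against C1qa in each library (left and middle, axes not from 0), and the ratio of C1qb to C1qa FPKM by genotype with its mean and SD (right, axis not from 0), for Tshr-/- (red) and wild type (blue). C1qc follows C1qa across both genotypes, while the C1qb to C1qa ratio is 0.625 to 0.705 in Tshr-/- and 0.692 to 0.789 in wild type.

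Microglial markers gave a measure of the cells that are the main source of C1q. The 15 markers summed to 112 to 125 FPKM in Tshr-/- and 115 to 127 FPKM in wild type, and none was at 0. In bulk tissue fewer microglia and less RNA per microglial cell cannot be told apart. None of the 15 passed the limma test, 4 differences were above 0 and 11 below, and the median was -0.05. Those with the smallest p were the surface receptor Trem2, at 2.63 ± 0.313 FPKM in Tshr-/- and 3.04 ± 0.184 in wild type, and Selplg, at 6.14 ± 0.595 and 7.10 ± 0.801 (limma adjusted p = 0.345 and 0.373). The summed C1q chains came to 0.842 ± 0.0926 of the summed microglial markers in Tshr-/- and 0.882 ± 0.102 in wild type, and the ranges overlapped. The lowest ratios were 0.754 in Tshr-/- library 1, 0.759 in Tshr-/- library 2 and 0.759 in wild-type library 4. With the microglial mean as a covariate C1qb had a log2 difference of -0.15 (limma adjusted p = 0.618). With the thalamus and habenula mean instead it had -0.12 (limma adjusted p = 0.629).

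C4b (ENSMUSG00000073418, chromosome 17, 34728380 to 34743882, minus strand), the complement C4 that C1 cleaves, had the smallest p of the members. It stood at 4.01, 4.65, 4.94, 5.46 and 4.89 FPKM in Tshr-/- libraries and at 3.80, 4.51, 4.12, 3.93 and 4.44 FPKM in wild-type libraries. Tshr-/- libraries 2 to 5 lay above every wild-type library, and library 1 lay within the wild-type range. The means were 4.79 ± 0.526 FPKM in Tshr-/- and 4.16 ± 0.307 in wild type, which is a log2 difference of 0.19 with an interval from 0.01 to 0.38 (limma adjusted p = 0.363). Each library gave 539 to 863 C4b reads. The near-identical copy C4a had 0.142 to 0.263 FPKM in Tshr-/- and 0.120 to 0.273 in wild type, and how reads shared between the copies were divided is not stated, so C4b is uncertain to that extent.

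The difference of C4b was positive under all 26 alternatives and called under none. Its unadjusted p lay below 0.05 under 16 of them. The difference was 0.15 without Tshr-/- library 4 (limma adjusted p = 0.462), the library highest in C4b and in choroid plexus, meninges and interferon-stimulated transcripts. It was 0.12 with the choroid plexus mean and 0.06 with the meninges mean as a covariate. Meninges and fibroblast markers summed to 19.1 to 51.4 FPKM in Tshr-/- and 13.1 to 25.9 FPKM in wild type, and all 9 tested had a positive difference, with a median of 0.78.

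C3 (ENSMUSG00000024164, chromosome 17, 57203970 to 57228136, minus strand), on which all complement pathways converge, was near the detection limit. Tshr-/- libraries gave 26, 32, 7, 61 and 8 reads, against 14, 32, 8, 4 and 11 reads in wild type. Those were 0.172, 0.211, 0.0517, 0.443 and 0.0562 FPKM in Tshr-/- and 0.0889, 0.185, 0.0678, 0.0313 and 0.0859 FPKM in wild type. Tshr-/- library 4 was highest, followed by Tshr-/- library 2, wild-type library 2 and Tshr-/- library 1. In all, 134 reads fell in Tshr-/- (exact Poisson 95% interval 112 to 159, counting error only) and 69 in wild type (53.7 to 87.3). These intervals leave out the spread between libraries, so they do not compare the genotypes. Without Tshr-/- library 4 the Tshr-/- group had 73 reads (57.2 to 91.8). Its mean was then 0.123 ± 0.0812 FPKM (n = 4), against 0.0918 ± 0.0569 in wild type (n = 5). In the limma fit of all genes with a read, read out for the low genes after their values were seen, C3 had a log2 difference of 0.46 ± 0.36 (SE, adjusted p = 0.747).

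Serping1 (ENSMUSG00000023224, chromosome 2, 84765387 to 84775444, minus strand) is the inhibitor of C1r, C1s and the lectin pathway proteases. It had 1.64, 2.80, 2.45, 3.82 and 1.71 FPKM in Tshr-/- libraries, against 1.92, 2.38, 1.44, 1.92 and 2.44 FPKM in wild-type libraries. Tshr-/- libraries 2, 3 and 4 lay above every wild-type library, while libraries 1 and 5 lay below 4 of the 5. The log2 difference was 0.24 with an interval from -0.26 to 0.74 (limma adjusted p = 0.677). It was 0.07 without Tshr-/- library 4, 0.02 with the choroid plexus covariate and -0.25 with the meninges covariate, so its sign depended on that list. C4b and Serping1 had a Pearson r of 0.705 over the 10 libraries (permutation p = 0.0224, adjusted p = 0.0561) and a rho of 0.624 (permutation p = 0.0595, adjusted p = 0.149). Without the 2 libraries farthest from the median of C4b, r was 0.511. The other 6 pairs, each a C1q chain with C4b or Serping1, had r from -0.36 to 0.178 and adjusted permutation p of at least 0.614 for r and 0.436 for rho. For C1qa and C4b r was 0.112, and 0.815 without the 2 libraries farthest from the median of C1qa.

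Cd59a (ENSMUSG00000032679, chromosome 2, 104095801 to 104115354, plus strand), which anchors to the membrane and blocks pore assembly, varied most between libraries of the 6 tested members. It had 4.80, 6.17, 1.66, 5.09 and 2.15 FPKM in Tshr-/- libraries, against 1.78, 6.03, 2.07, 2.20 and 2.57 FPKM in wild-type libraries. The values fell into separate clusters, with Tshr-/- libraries 1, 2 and 4 and wild-type library 2 at 4.80 to 6.17 FPKM and the other 6 libraries at 1.66 to 2.57, so no correlation over all libraries is given. The clusters cut across genotype. The log2 difference was 0.41 with an interval from -0.49 to 1.31 (limma adjusted p = 0.701). It was 0.70 without wild-type library 2 (limma adjusted p = 0.413), 0.05 with the thalamus covariate and -0.26 with the meninges covariate. With the oligodendrocyte covariate it was 0.38, with an SE of 0.23 against 0.41 without a covariate (limma adjusted p = 0.482).

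Several marker lists, among them those of oligodendrocytes and of thalamus, matched the libraries high in Cd59a in part. By mean log2 value the reactive astrocyte list was highest in Tshr-/- libraries 4 and 2, then in wild-type library 2. The astrocyte list was highest in wild-type library 2 and Tshr-/- library 2. In both lists wild-type library 5, low in Cd59a, stood above Tshr-/- library 1. Oligodendrocyte markers summed to 1045, 1138, 638, 1132 and 822 FPKM in Tshr-/- libraries, against 868, 1248, 1075, 675 and 938 FPKM in wild-type libraries. The sum was highest in wild-type library 2, followed by Tshr-/- libraries 2 and 4, and wild-type library 3, low in Cd59a, stood above Tshr-/- library 1. Thalamus and habenula markers summed to 119, 213, 32.9, 50.7 and 27.0 FPKM in Tshr-/- libraries, against 22.3, 71.4, 23.9, 15.3 and 97.7 FPKM in wild-type libraries. Tshr-/- library 4 was not high in that list and wild-type library 5 was, in contrast to Cd59a. None of the 8 oligodendrocyte and 8 thalamus markers was at 0. The part of these cells and tissues in the level of Cd59a was not tested beyond the covariates above. Its copy Cd59b, mainly a testis gene, had 0.117 to 0.577 FPKM in Tshr-/- and 0.235 to 0.572 in wild type, and reads shared between the copies cannot be told apart.

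**Figure D3:**
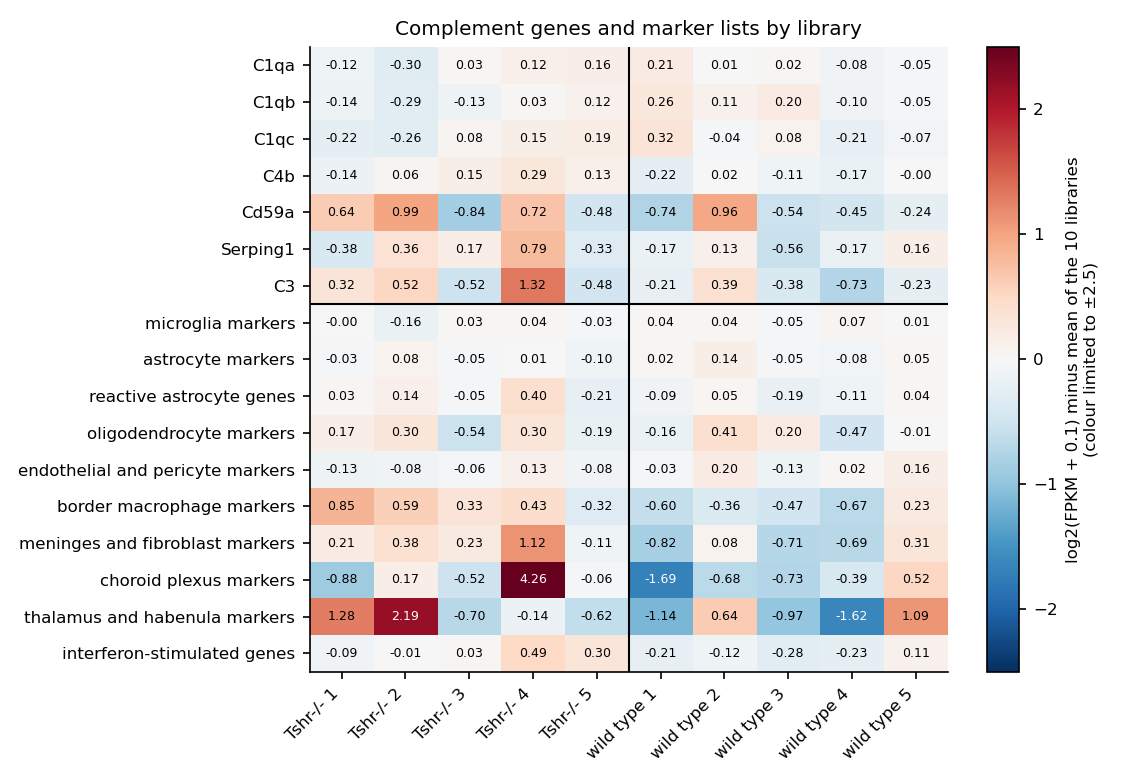
Value of each complement gene (above the line) and of the mean of each marker list (below it) in each library, as log2(FPKM + 0.1) minus the mean of the 10 libraries, with Tshr-/- left of wild type. Serping1 and C3 are highest in Tshr-/- library 4, which stands at 4.26 for choroid plexus and 1.12 for meninges, while the microglial list lies between -0.16 and 0.07.

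The genes whose pattern was most like that of each member were found by Pearson correlation of log2 values over the 10 libraries with the genotype means taken away. They are the highest of 15471 genes and are therefore a description. None is given for Cd59a, whose libraries fall into clusters, nor for C3, which was not tested. For Serping1 they were Bgn, which encodes the matrix proteoglycan biglycan (r = 0.951), Cpt1a, an enzyme of fatty acid oxidation (0.948), and the pseudogene Rpl3-ps1 (0.926). For C4b they were Cyb561a3 (0.908), Mif4gd (0.903) and Dll4 (0.902). None of the nearest genes of the C1q chains was a microglial marker of the list. They were Sdhaf4, Gm19426 and Gper1 for C1qa (0.946, 0.943 and 0.940), Bag2, Pgs1 and Gm39121 for C1qb (0.982, 0.971 and 0.966), and Slc35a4, Bcar1 and Mospd3 for C1qc (0.981, 0.963 and 0.961).

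The rest of the pathway was read from 55 other complement genes. Of these, 21 were tested and 34 lay below the filter. None of the 21 was called, 13 differences were above 0 and 8 below, and the median was 0.08. One, Sez6l2, had an unadjusted p below 0.05. Among classical and lectin components only 2 of 15 were tested. Masp1, a lectin pathway protease, had 3.18 ± 0.409 FPKM in Tshr-/- and 2.93 ± 0.507 in wild type, and the scavenger collectin Colec12 had 1.84 ± 0.717 and 1.38 ± 0.493 (limma adjusted p = 0.725 and 0.656). Of 10 alternative and terminal components 2 were tested. Properdin, Cfp, which stabilises the alternative pathway convertase, had 4.17 ± 0.373 FPKM in Tshr-/- and 4.96 ± 1.30 in wild type, and C8g had 1.07 ± 0.243 and 0.891 ± 0.233 (limma adjusted p = 0.613 and 0.635).

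Receptors were tested for 4 of 10 genes. The integrin chains of complement receptor CR3 were Itgb2, at 1.74 ± 0.118 FPKM in Tshr-/- and 1.57 ± 0.160 in wild type, and Itgam, at 1.19 ± 0.138 and 1.10 ± 0.0485 (limma adjusted p = 0.511 and 0.694). A second entry named Itgam overlaps the first on the same strand and had 0 reads in every library. How reads shared by the 2 entries were counted is not stated, so the level of Itgam is uncertain to that extent. Of 20 other regulators 13 were tested, 7 with a positive and 6 with a negative difference and a median of 0.02. Clusterin, Clu, a secreted chaperone that binds the terminal complex, was the most abundant of all complement genes listed, at 202 ± 11.6 FPKM in Tshr-/- and 185 ± 10.8 in wild type (limma adjusted p = 0.414). Of the neuronal Sez6 family, whose proteins carry complement control domains, Sez6l2 had 76.7 ± 2.76 FPKM in Tshr-/- and 90.7 ± 9.24 in wild type, and Sez6l had 58.0 ± 5.94 and 65.4 ± 5.50 (limma adjusted p = 0.220 and 0.392).

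**Figure D4:**
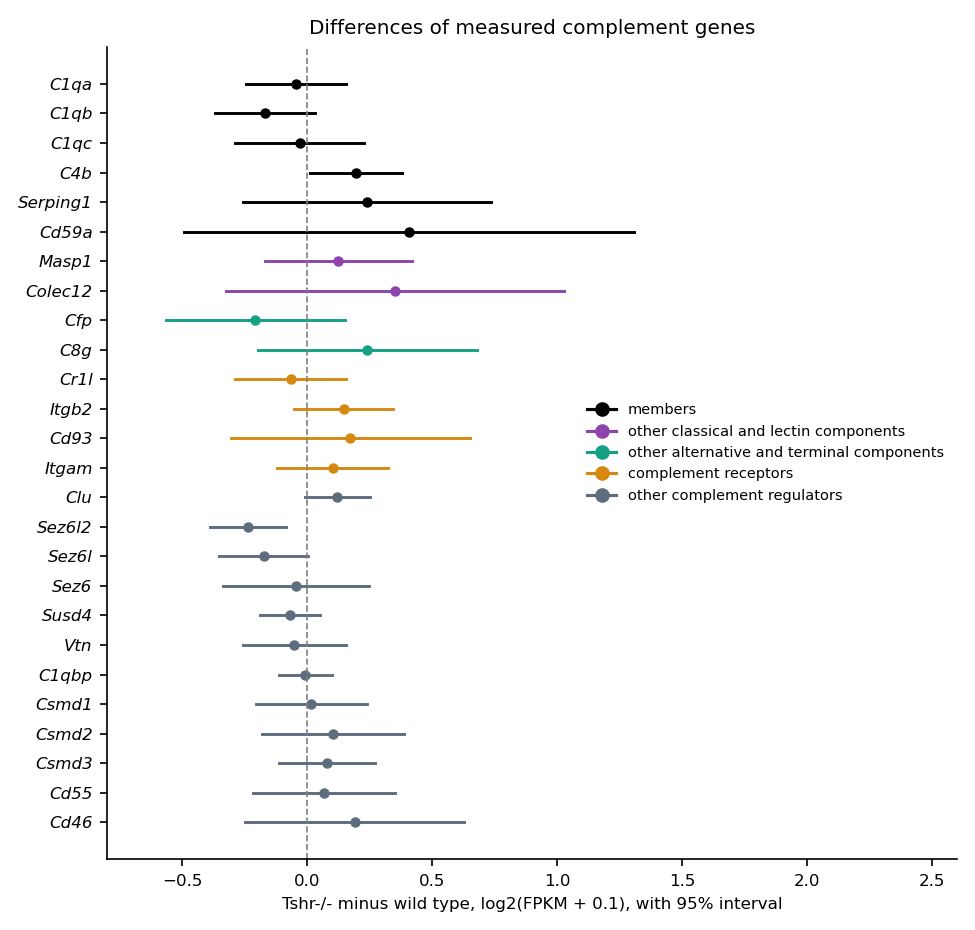
Difference of the tested complement genes reported here, in log2(FPKM + 0.1) units and positive where Tshr-/- is higher, as a point with its limma 95% interval, coloured by gene list. Every interval drawn but those of C4b and Sez6l2 holds 0, and neither of these genes passed after adjustment over all genes tested.

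Of the 55 genes 53 had a read, and 2 of these, both below the filter, did not overlap between genotypes. Over all genes with a read that share was 1.76% (0.790% higher and 0.969% lower in Tshr-/-). Both genes were picked out after their values were seen. Cfb, the factor B protease of the alternative pathway, was higher in each Tshr-/- library, with 10, 11, 8, 6 and 7 reads in Tshr-/- and 2, 2, 5, 4 and 3 in wild type. In FPKM these were 0.0793 to 0.132 in Tshr-/- and 0.0211 to 0.0771 in wild type, and limma over all genes with a read gave an adjusted p of 0.356. Cfb overlaps Gm20547 on its own strand, so the reads are uncertain. Masp2, a lectin pathway protease, was lower in FPKM in each Tshr-/- library, at 0.115 to 0.147 in Tshr-/- and 0.171 to 0.634 in wild type (limma adjusted p = 0.459). Its reads, not scaled for depth, were 12, 13, 10, 13 and 12 in Tshr-/- and 46, 19, 13, 52 and 21 in wild type, so that 2 Tshr-/- libraries tied with wild-type library 3. Part of Masp2 overlaps Tardbp on the other strand, and the library kit named in the labels does not mark strand, so reads of the pair cannot be told apart.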

How the data were processed

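RNA of the hippocampus was sequenced for 5 Tshr-/- and 5 wild-type libraries. The authors deposited FPKM per gene for each library. Per the submitters' processing notes, HISAT2 2.0.5, featureCounts 1.5.0-p3 and mm10 were used, with an annotation release not given in the sources used. From the FPKM and gene lengths 100% of values came out as whole reads within 0.01, summing to 23899650 to 33529811 per library, and more reads behind a gene give a more precise value. Genes with a mean of at least 0.5 FPKM (15471 of 52636) were tested with limma 3.58.1 in R 4.3.3 on log2(FPKM + 0.1), with a mean-variance trend, 2-sided, and Benjamini-Hochberg adjustment over all of them. Differences are Tshr-/- minus wild type on that scale, which understates changes of low genes. Genes were called below an adjusted p of 0.05.

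On simulated data with known changes the test called 13 of 48 genes changed 1.3-fold, 38 of 50 genes changed 1.5-fold, 44 of 50 changed 2-fold and 46 of 47 changed 3-fold, and it made 1 false call among 15334 genes. The simulated libraries had the same spread setting for every gene and no neighbouring tissue. The shares called therefore do not show how often such changes would be called in Cd59a or Serping1, which varied more. Correlations used 100000 permutations (SciPy 1.17.1). The complement genes and marker lists were chosen with earlier results of these data known. Besides the 7 genes, those named are Tshr, up to 3 genes with the smallest p and the most abundant gene of a list, the 3 genes most like each tested member except Cd59a, and a few genes set in advance by name or said to be chosen after their values were seen. Alternatives were other pseudocounts, filters and scalings, marker covariates, the replicate block and leaving out each library. The values of 1 gene that the naming rule covers are not reported here, though it stays in the counts and medians of its list.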

Additional observations from a re-analysis of the deposited data

Results flagged for a closer look

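In 82 groups of 5 libraries the gap of the highest or lowest library to its nearest neighbour was compared with the range of the group, and chance alone sets off about 1 in 20 groups. For Cd59a wild-type library 2 stood apart at 6.03 FPKM, against 1.78 to 2.57 in the other wild-type libraries. For the lectin pathway protease Masp1 wild-type library 5 stood apart at 2.06 FPKM, against 2.95 to 3.29. For Mrc1, a marker of border macrophages, wild-type library 5 stood apart at 0.391 FPKM, against 0.0889 to 0.149.

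Tshr-/- library 4 stood apart for 3 genes. Ttr was at 2189 FPKM there, against 2.77 to 54.2 in the other Tshr-/- libraries. Gbp2, an interferon-inducible GTPase, was at 1.68 FPKM, against 0.891 to 1.08, and Lgals3bp at 9.56 FPKM, against 3.99 to 5.43. Serpina3n, a protease inhibitor of reactive astrocytes, was low in Tshr-/- library 5 at 12.4 FPKM, against 47.9 to 57.7 in the other Tshr-/- libraries.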

How the results depend on the processing

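Under all 26 alternatives 0 of the members were called by limma. Over all genes 2 were called, and the count was 14 with a pseudocount of 0.01, 4 without a filter, 13 with a mean of at least 1 FPKM, 4 with quantile normalization, 1 without the mean-variance trend, 13 with robust empirical Bayes and 17 with protein-coding genes alone. It was 0 with the microglia covariate, 4 with choroid plexus, 8 with thalamus, 0 with meninges and 21 with oligodendrocytes, and 0 to 9 when a library was left out. The last 3 covariates and limma voom (2 genes) were added after seeing the data. Signs turned for C1qa with quantile normalization (0.0343), microglia (0.0135) and thalamus (0.0236), for C1qc with quantile normalization (0.0420), microglia (0.0111), thalamus (0.0491) and meninges (0.0212), and with meninges for Serping1 (-0.25) and Cd59a (-0.26). Leaving out a library gave -0.0893 to 0.0254 for C1qa, -0.22 to -0.12 for C1qb, -0.0865 to 0.0473 for C1qc, 0.15 to 0.26 for C4b, 0.07 to 0.37 for Serping1 and 0.21 to 0.70 for Cd59a. The causes were not tested.

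The replicate block gave 3 calls and no member. Same-numbered libraries had deviations correlated by -0.07 to 0.30, and 4 of 10 libraries correlated best with their own number. The labels do not state a pairing, and these values cannot decide whether there is one. The planned edgeR, DESeq2 and TMM alternatives were not run, since the deposited values are FPKM. Depth limits C3, Cfb and Masp2, with few reads a library.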

Other observations

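Genes of reactive astrocytes and of the interferon response, which can accompany complement induction, were read as neighbouring lists. Of 20 reactive astrocyte genes 15 were tested, none was called, and 10 differences were above 0 and 5 below, with a median of 0.10. The differences ran from -0.45 for Hspb1 to 0.63 for Serpina3n. At an unadjusted limma p below 0.05 there was 1 positive and 1 negative difference. Serpina3n had 47.9, 51.7, 57.7, 57.5 and 12.4 FPKM in Tshr-/- libraries and 28.5, 25.7, 25.3, 28.7 and 21.6 FPKM in wild-type libraries, and 4 Tshr-/- libraries lay above every wild-type library while library 5 lay below them all (limma adjusted p = 0.493). Of 20 interferon-stimulated genes 16 were tested and none was called. All 16 differences were above 0, with a median of 0.25 against -0.01 over all genes tested. The 20 genes summed to 42.3, 43.4, 45.4, 72.6 and 53.7 FPKM in Tshr-/- libraries, against 42.5, 42.0, 40.8, 44.2 and 47.8 FPKM in wild-type libraries. Wild-type library 5 thus stood above Tshr-/- libraries 1, 2 and 3. Ifit3 had 2.36 to 3.12 FPKM in Tshr-/- and 1.29 to 2.32 in wild type, with every Tshr-/- library above every wild-type library (limma adjusted p = 0.243). It was the only 1 of the 20 genes to do so, and 0.790% of all genes with a read did.

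No gene of the other lists was called by limma. Among 10 astrocyte markers Gfap had 79.6 ± 14.4 FPKM in Tshr-/- and 95.5 ± 6.33 in wild type (limma adjusted p = 0.317), and the list's median was -0.00. Among border macrophage markers 2 of 8 were tested, both with a positive difference and with a median of 0.75. Cbr2 had 0.823 ± 0.263 FPKM in Tshr-/- and 0.378 ± 0.115 in wild type (limma adjusted p = 0.211). The 8 genes summed to 1.57 to 5.01 FPKM in Tshr-/- and 1.19 to 3.04 FPKM in wild type. Median differences were -0.08 for 8 neuron markers, 0.01 for 8 oligodendrocyte markers, -0.04 for 9 endothelial and pericyte markers, 1.20 for 9 choroid plexus markers, 0.65 for 8 thalamus and habenula markers, -0.40 for 10 hippocampal subfield markers and 0.26 for 7 blood cell genes.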
